A study of Rattus norvegicus with 10 samples.

Results

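The ligands and receptors that steer growing axons were examined in rupture-prone intracranial aneurysms (IAs) of rats and in the rest of the same arterial ring. The 67 genes were taken by symbol from the 22081 genes of the deposited table. They were the secreted semaphorins (Sema3, 7 genes), the membrane-bound semaphorins (Sema4 to Sema7, 13 genes), the plexins (9 genes), both neuropilins, the ephrins (8 genes), the EphA receptors (9 genes), the EphB receptors (5 genes), Slit1 to Slit3, Robo1 to Robo3, the netrins (Ntn, 4 genes) and the Unc5 receptors (4 genes). By role, 35 were ligands and 32 were receptors.

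The aneurysm group held 5 rupture-prone lesions, numbered 4 to 8, and the control group held 5 samples of the remaining circle of Willis, the arterial ring at the base of the brain, with the same numbers. All rats were wild-type female Sprague–Dawley animals, 10 weeks old at surgery, in which both ovaries were removed and the left carotid, left renal, right external carotid and right pterygopalatine arteries were tied off. From then on they ate food with 8% salt and 0.12% 3-aminopropionitrile, which blocks lysyl oxidase and so the cross-linking of collagen and elastin, and the arteries were taken 63 days later. Aneurysm and remaining ring came from the same treated animals, so that the control samples were not from untreated rats. No source says that a shared number marks an animal or that each number is a separate animal, and p-values therefore measure only the spread between these samples, which may be technical.

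Axon guidance works by paired ligands and receptors. Class 3 semaphorins are secreted and most of them bind neuropilins, which signal through plexins, whereas membrane-bound semaphorins bind plexins directly. Slits bind Robos, netrins bind Dcc, neogenin and Unc5 receptors, and ephrins bind Eph receptor tyrosine kinases on the neighbouring cell. The same molecules guide endothelial tips, set the border between arteries and veins and direct migrating immune cells, and many of them are also made by neurons and glia of the adult brain.

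Gene reads, the sum of exon and intron reads, numbered 4513515 to 7352626 per aneurysm library and 3017269 to 5692715 per control library. Aneurysm 8 stood apart, with a TMM scaling factor of 0.282 against 0.759 to 1.57 in the other 9 libraries, and with 743 genes at 10 or more exon reads against 2664 to 7590. Mitochondrial genes took 19.4 to 50.3% of the reads of the aneurysms and 37.9 to 59.0% of those of the control samples. Of the smooth muscle list, 8 of 8 genes were tested, none of its genes had 0 reads in a whole group, and its summed level was 379 to 1114 CPM (reads scaled to the library size after TMM correction) in the aneurysms and 620 to 1454 CPM in the control samples. Summed endothelial markers were at 65.8 to 198 CPM in the aneurysms and 103 to 276 CPM in the control samples, with 7 of 8 listed genes in the table. Of the markers of other cells, the neuron and astrocyte sums did not overlap between the groups, whereas the other sums did. Summed oligodendrocyte markers were at 40.8 to 457 CPM in the aneurysms and 26.0 to 141 CPM in the control samples. Summed Schwann cell markers were at 57.0 to 223 CPM and 29.7 to 222 CPM in the same order. Summed fibroblast markers were at 356 to 20029 CPM in the aneurysms and 164 to 466 CPM in the control samples, and summed macrophage markers were at 80.7 to 5907 CPM and 33.2 to 112 CPM in the same order. The fibroblast sum was carried by the collagen genes Col1a1 and Col3a1, which passed the test, whereas Pdgfra and Fbln1 had negative log2 fold changes (4 positive and 2 negative of 6 tested, median 0.78). Of 6 tested macrophage markers 5 were positive and 1 was negative (median 3.24). Summed neuron markers were at 12.6 to 161 CPM in the aneurysms and 171 to 1056 CPM in the control samples, and summed astrocyte markers were at 4.75 to 247 CPM and 429 to 970 CPM in the same order. In such whole-tissue samples fewer cells of a type and less RNA per cell cannot be told apart.

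Most reads of the guidance genes lay in introns, that is, outside the mature spliced message. The genes took 43089 reads in the 5 aneurysms, of which 73.6% were in introns, and 33097 reads in the 5 control samples, of which 89.5% were in introns. By sample the intron share was 95.6, 63.8, 53.0, 82.2 and 92.2% in aneurysms 4 to 8, against 86.1, 90.1, 85.5, 96.2 and 83.6% in control samples 4 to 8. Aneurysms 5 to 7 thus lay below every control sample, number 7 only just, and aneurysms 4 and 8 lay within the range of the control samples. The share was also taken over all genes other than the mitochondrial ones and AABR07000398.1. There it was 71.3, 28.8, 38.9, 54.5 and 72.6% in aneurysms 4 to 8 and 56.5 to 68.0% in the control samples. Aneurysms 5 to 7 again lay below every control sample, so that this was not particular to the guidance genes. Exon reads numbered 536, 5086, 4706, 889 and 138 in aneurysms 4 to 8, so that aneurysms 5 and 6 held 86.2% of all exon reads of these genes in the aneurysms. The control samples had 1220, 656, 606, 379 and 600 exon reads. The same 2 aneurysms had the highest summed fibroblast markers (20029 and 14410 CPM) and macrophage markers (3996 and 5907 CPM), and their part in the exon reads was not tested.

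**Figure D1:**
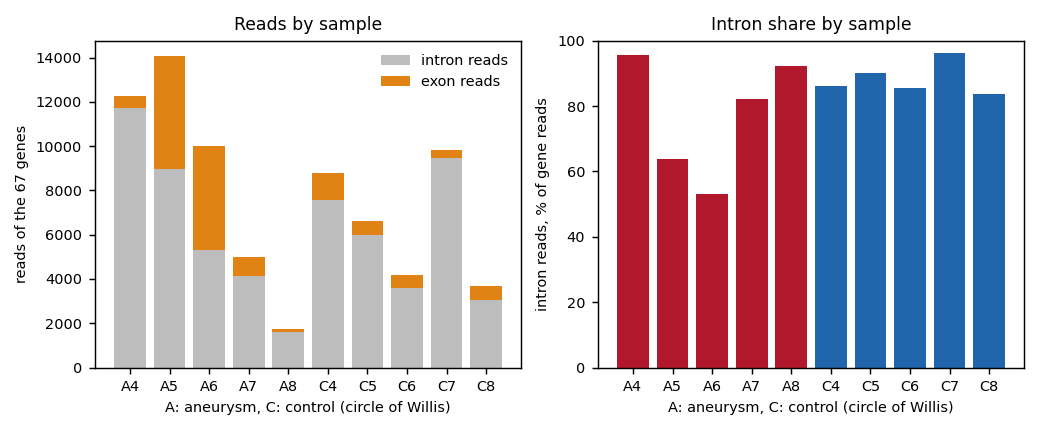
Left, intron and exon reads (stacked bars, number of reads) of the 67 guidance genes in aneurysms 4 to 8 and control samples 4 to 8. Right, the share of these reads that lay in introns (percent), which was 53.0% and 63.8% in aneurysms 6 and 5 and 82.2 to 96.2% in the other 8 samples.

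Many of the guidance genes are long, but reads in introns were not confined to the long ones. The guidance genes had a median span of 42.6 kb, against 13.4 kb over all genes of the table, and 27 of the 67 were longer than 100 kb, against 9.67% of all genes. Over the 58 guidance genes with at least 10 reads, span and intron share had a Spearman correlation of 0.27 across genes, which share libraries and are not independent. In 14 genes every read was in an intron, among them Ntn1 and Plxna4, and 16 genes had no exon read, whereas Efnb3, which spans 6.0 kb, had 0.813% of its reads in introns in the aneurysms and 0% in the control samples. Exon reads were also uneven between samples. Of the 39 guidance genes with at least 10 exon reads, 29 had over 50% of them in 1 sample, and over all genes with at least 10 exon reads this share was 67.8%. Reads across an exon-exon junction, which can only come from spliced RNA, numbered 467 in the aneurysms and 196 in the control samples and were found in 10 of the 67 genes.

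Across the family no gene differed between aneurysm and circle of Willis past the threshold. Of the 33 guidance genes with enough gene reads to be tested, 0 passed an adjusted p of 0.05 in edgeR's quasi-likelihood test, against 0.118% called higher and 0.0394% called lower among the 7615 genes tested. At an unadjusted p under 0.05, 2 were higher and 2 were lower in the aneurysms, against a background of 3.3% and 2.43%. DESeq2 called 1 of the 33, Unc5b, against a background of 1.09% higher and 0.643% lower, and limma-voom called 0 (background 0.0263% and 0.144%). Of the 33 genes 15 had a positive log2 fold change and 18 a negative one (54.2% and 45.8% of all genes tested), with a median of -0.17 against 0.13 over all genes tested, and 7 of 16 tested ligands and 8 of 17 tested receptors were positive. Standard errors were 0.73 to 2.03 on the log2 scale. For exon reads, 9 guidance genes were tested and 0 passed, against 0.404% higher and 0.135% lower of 2969 genes, and 0 higher and 1 lower had an unadjusted p under 0.05 (background 2.56% and 1.75%). For intron reads, 30 were tested and 0 passed, against 0% of 5459 genes in either direction, and 2 higher and 2 lower had an unadjusted p under 0.05 (background 2.75% and 2.64%).

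**Figure D2:**
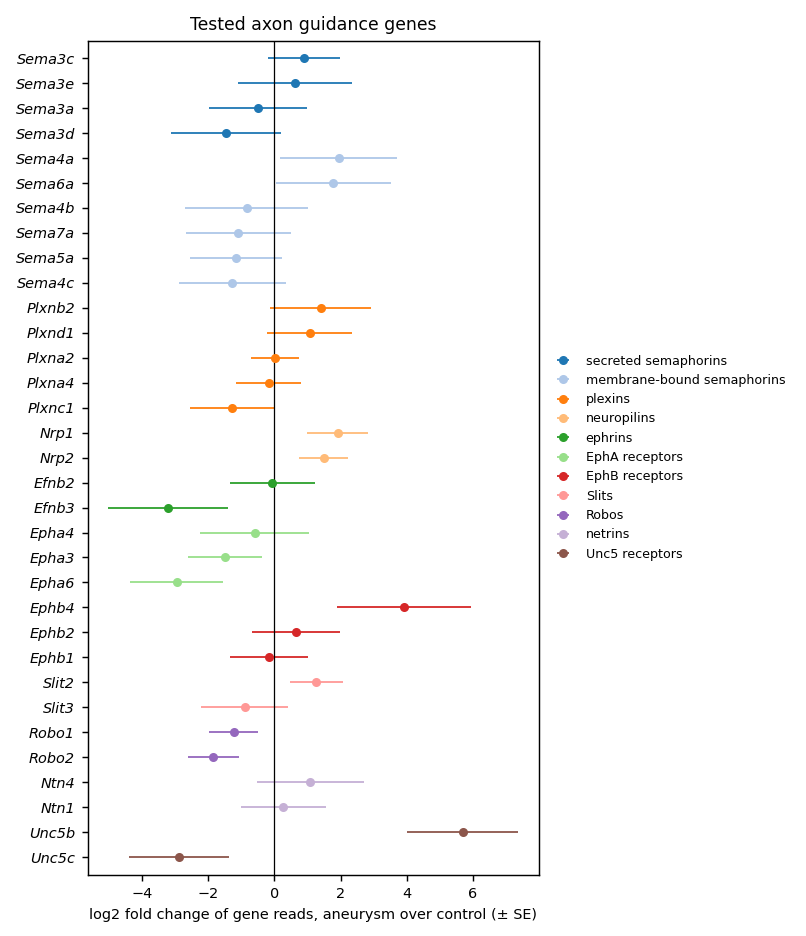
Log2 fold change of gene reads in aneurysms over control samples (points) with its standard error (bars) for the 33 guidance genes tested, grouped by family, from edgeR. Unc5b lies farthest to the right at 5.69 and Efnb3 farthest to the left at -3.21, and none passed an adjusted p of 0.05.

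Both tested netrin receptors of the Unc5 family had large fold changes, in opposite directions and with no call in edgeR. Unc5b, which binds netrins and holds back sprouting vessels in the mouse embryo, lies on chromosome 20 (30339672 to 30406295, Rnor6). It had 9.62, 65.6, 204, 26.4 and 0 CPM in aneurysms 4 to 8, against 3.998, 1.27, 0, 0.353 and 0 CPM in control samples 4 to 8. Aneurysms 4 to 7 were thus above every control sample, and aneurysm 8 had no read. The mean was 61.1 ± 83.7 CPM in the aneurysms and 1.12 ± 1.69 CPM in the control samples (SD, n = 5 each), with a log2 fold change of 5.69 (standard error 1.68, unadjusted p = 0.00216, adjusted p = 0.287, edgeR). A two-sided exact permutation test of the ranks gave p = 0.0952 (0.684 after adjustment over all genes tested). The call depended on the method. DESeq2 gave 6.11 with an adjusted p of 0.00199, and edgeR without a filter on low counts gave 5.80 with an adjusted p of 0.0308 (background 0.581% higher and 0.198% lower). Over 18 alternatives the adjusted p ranged between 0.00199 and 0.76, and the log2 fold change stayed between 4.44 and 7.08.

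The Unc5b reads of the aneurysms were mostly exonic. Exon reads numbered 0, 563, 1103, 123 and 0 in aneurysms 4 to 8 and 0, 1, 0, 0 and 0 in control samples 4 to 8, which is a ratio of 832 after scaling (95% counting interval 149 to 32881, counting error only). Introns held 12.9% of its reads in the aneurysms and 96.8% of its few reads in the control samples. Reads across an exon-exon junction numbered 0 for Unc5b in both groups, so that no read showed its RNA to be spliced. The 3 aneurysms with exon reads, 5 to 7, were also those with the highest summed macrophage markers (3996, 5907 and 962 CPM, against 156 and 80.7 CPM in aneurysms 4 and 8) and fibroblast markers (20029, 14410 and 3975 CPM, against 356 and 466 CPM). The part of these markers in the Unc5b reads was not tested.

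Unc5c, a receptor that turns netrin into a repellent signal for axons, lies on chromosome 2 (247248406 to 247397483). It had 28.8, 0, 1.08, 1.01 and 0 CPM in aneurysms 4 to 8 and 82.9, 39.3, 34.4, 34.9 and 40.1 CPM in control samples 4 to 8, so that every aneurysm lay below every control sample. It was the only 1 of the 33 tested genes whose groups did not overlap in gene reads (background 0.499% higher and 1.54% lower). The mean was 6.19 ± 12.7 CPM in the aneurysms and 46.3 ± 20.6 CPM in the control samples (SD, n = 5 each). The log2 fold change was -2.88 (standard error 1.52, unadjusted p = 0.0682, adjusted p = 0.889, edgeR), and without aneurysm 4 it was -6.27 with an adjusted p of 0.177. The exact permutation test gave p = 0.00794, the smallest that 5 against 5 samples can give, and 0.39 after adjustment over all genes tested. Nearly all of its reads were intronic, 98.8% in the aneurysms and 99.9% in the control samples. Unc5d was read 30 times in the aneurysms and 22 times in the control samples, and Unc5a 3 times and 0 times, so that neither could be tested.

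The levels of the netrins themselves overlapped between the groups. Ntn1 had 27.8 ± 23.3 CPM in the aneurysms and 22.9 ± 14.5 CPM in the control samples, and Ntn4, a netrin of basement membranes, had 16.3 ± 20.4 CPM and 7.66 ± 5.41 CPM in the same order (SD, n = 5 each). Their log2 fold changes were 0.27 (standard error 1.27) and 1.08 (standard error 1.63), both with an adjusted p of 0.999 (edgeR), and both turned negative under other settings. All their reads were in introns in both groups. For Ntn5 the aneurysms gave 49 reads and the control samples 2, and Ntn3 had none.

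Of the Slit and Robo families, Slit2 was higher on average in the aneurysms and Slit3, Robo1 and Robo2 were lower on average, with no call. Slit2 had 185, 170, 15.0, 101 and 278 CPM in aneurysms 4 to 8, against 81.5, 29.2, 18.5, 91.6 and 91.7 CPM in control samples 4 to 8. The aneurysms other than number 6 were above every control sample and aneurysm 6 was below every one. The level in aneurysm 8 rested on 352 reads and on the low scaling factor of that library (0.282). The mean was 150 ± 98.4 CPM in the aneurysms and 62.5 ± 35.7 CPM in the control samples (SD, n = 5 each), with a log2 fold change of 1.26 (standard error 0.80, unadjusted p = 0.126, adjusted p = 0.993, edgeR). Its exon reads numbered 1, 392, 0, 232 and 120 in the aneurysms and 106, 0, 0, 0 and 2 in the control samples, and 257 of them in the aneurysms and 0 in the control samples crossed a junction (25 in aneurysm 5 and 232 in aneurysm 7). Slit3 had 14.8 ± 8.75 CPM in the aneurysms and 27.6 ± 17.6 CPM in the control samples (log2 fold change -0.90, standard error 1.31). Slit1 was read 34 times in the aneurysms and 27 times in the control samples, only in introns.

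Robo2, a Slit receptor that spans 523 kb of chromosome 11 (11062789 to 11585765), had 59.0, 18.4, 156, 116 and 8.70 CPM in aneurysms 4 to 8 and 351, 245, 95.6, 327 and 272 CPM in control samples 4 to 8. The 2 highest aneurysms overlapped only the lowest control sample, number 6. The mean was 71.7 ± 63.4 CPM in the aneurysms and 258 ± 100 CPM in the control samples (SD, n = 5 each), with a log2 fold change of -1.85 (standard error 0.77, unadjusted p = 0.0234, adjusted p = 0.724, edgeR; exact permutation p = 0.0317, adjusted 0.524). In exons the groups did not overlap. Robo2 had no exon read in any of the 5 aneurysms, against 104, 9, 1, 30 and 69 in control samples 4 to 8, which is at least 153-fold lower in the aneurysms after scaling, with a floor of 3 reads over the group. It was too sparse to be tested on exon reads. Its groups not overlapping is 1 case among 67 guidance genes and 0 among the 9 tested on exon reads. The background, 1.35% lower and 0.337% higher, is over the 2969 genes tested, a set that does not hold Robo2, and so is no measure for it. Reads across a junction numbered 0 in the aneurysms and 117 in the control samples.

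Robo1, which lies next to Robo2 (chromosome 11, 9642364 to 10143317), had 335, 57.5, 27.6, 19.8 and 130 CPM in aneurysms 4 to 8 and 250, 336, 204, 330 and 215 CPM in control samples 4 to 8. Only aneurysm 4 lay among the control samples. Its log2 fold change was -1.23 (standard error 0.74, unadjusted p = 0.109, adjusted p = 0.969, edgeR), from 114 ± 131 CPM in the aneurysms and 267 ± 62.6 CPM in the control samples (SD, n = 5 each). Robo3 had 1 read in the aneurysms and 4 in the control samples. The groups also differed in summed neuron markers, which were at 12.6 to 161 CPM in the aneurysms and 171 to 1056 CPM in the control samples. Of the 10 neuron markers 7 were tested, all 7 had a negative log2 fold change with a median of -3.74 and none passed, and Nefm was at 0 reads in every aneurysm. Summed astrocyte markers had the same direction, and the 3 tested were negative (median -2.27, with S100b at -0.44). Slc1a2 and Aldh1l1 were at 0 reads in every aneurysm, but neither was tested. In the control samples nearly all their reads came from control sample 5 (50 for Slc1a2) and control sample 4 (117 for Aldh1l1). The part of these cells in the Robo and Unc5c reads was not tested.

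**Figure D3:**
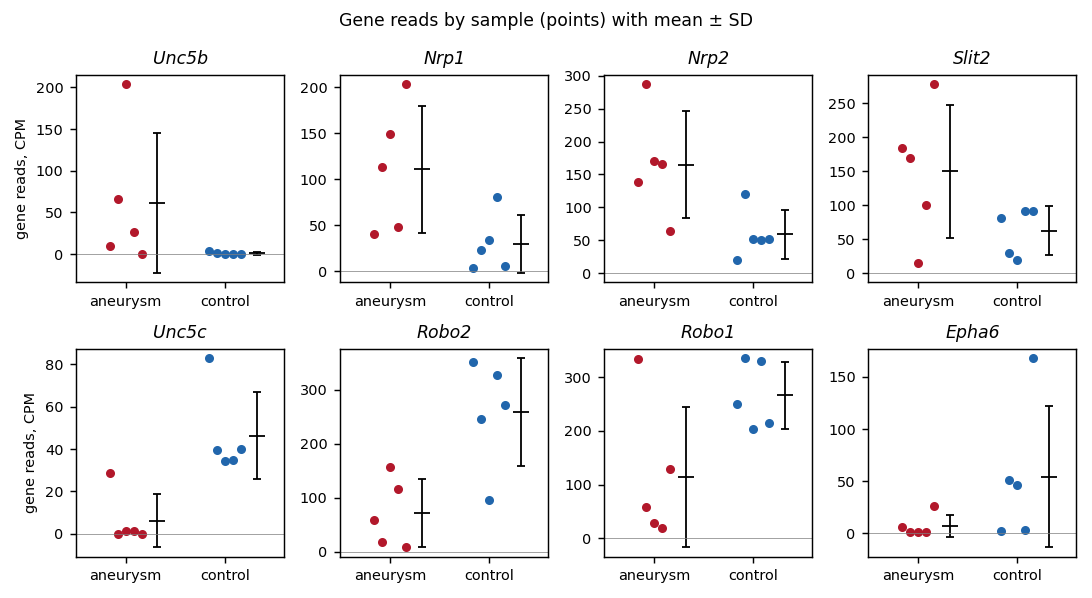
Gene reads (CPM, linear axes that differ between panels) of 8 guidance genes in the 5 aneurysms and the 5 control samples (points), with mean ± SD beside them. Unc5b, Nrp2 and Slit2 had 4 aneurysms above every control sample, and Unc5c had every aneurysm below every control sample. For Slit2 these included aneurysm 8, the library with the low scaling factor.

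Both neuropilins were higher on average in the aneurysms, with no call. Nrp1, a co-receptor for class 3 semaphorins and for VEGF (chromosome 19, 61332350 to 61485858), had 40.6, 113, 149, 47.6 and 203 CPM in aneurysms 4 to 8 and 3.48, 22.8, 33.8, 80.6 and 6.23 CPM in control samples 4 to 8. Control sample 7 alone reached into the range of the aneurysms. The highest level, in aneurysm 8, rested on 257 reads and on the low scaling factor of that library (0.282). For Nrp1 the log2 fold change was 1.91 (standard error 0.92, unadjusted p = 0.0473, adjusted p = 0.865, edgeR; exact permutation p = 0.0317, adjusted 0.524). Nrp2, which binds semaphorin 3F and VEGF-C (chromosome 9, 69497120 to 69612087), had 138, 288, 170, 166 and 63.3 CPM in aneurysms 4 to 8 and 19.99, 121, 51.7, 50.6 and 51.2 CPM in control samples 4 to 8. Only control sample 5 exceeded an aneurysm, number 8. Its log2 fold change was 1.49 (standard error 0.74, unadjusted p = 0.0542, adjusted p = 0.887, edgeR; exact permutation p = 0.0159, adjusted 0.449), from 165 ± 80.8 CPM in the aneurysms and 58.9 ± 37.2 CPM in the control samples (SD, n = 5 each).

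Exon and intron reads of both neuropilins had positive log2 fold changes. Summed over the pair, the level was 179 to 401 CPM in the aneurysms and 23.5 to 144 CPM in the control samples, with no overlap. Each gene alone did overlap. No background was computed for sums over a family, so that the gap between these sums cannot be weighed. Nrp1 had 1, 709, 227, 36 and 1 exon reads in aneurysms 4 to 8 and 18, 0, 0, 22 and 0 in control samples 4 to 8, and Nrp2 had 0, 472, 452, 192 and 0 and 0, 47, 12, 1 and 0 in the same order. For both genes, 0 reads crossed an exon-exon junction in either group. The exon log2 fold changes were 3.05 (standard error 2.28) for Nrp1 and 2.66 (standard error 2.16) for Nrp2, and the intron values were 1.94 (standard error 0.97) and 1.63 (standard error 0.74), none of them past the threshold. All 19 alternatives for gene reads kept both genes positive, with adjusted p values between 0.174 and 1.0 for Nrp1 and between 0.226 and 1.0 for Nrp2.

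The secreted semaphorins, most of them ligands of the neuropilins, had 2 positive and 2 negative log2 fold changes among 4 tested genes. Sema3c, a secreted semaphorin that guides cardiac outflow tract cells, had 52.9 ± 37.0 CPM in the aneurysms and 28.4 ± 25.6 CPM in the control samples (SD, n = 5 each; log2 fold change 0.90, standard error 1.09), and aneurysms 5 to 7 held 352, 345 and 125 exon reads of it, against 0 to 78 in the control samples. Sema3a, which collapses growth cones, had 15.4 ± 14.2 CPM in the aneurysms and 21.6 ± 23.6 CPM in the control samples (log2 fold change -0.50, standard error 1.47). Sema3d and Sema3e had log2 fold changes of -1.45 and 0.62. For Sema3b the aneurysms gave 0 reads and the control samples 54, 50 of them in control sample 5, Sema3f had 15 and 70 reads, and Sema3g had none.

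Among the membrane-bound semaphorins 2 of the 6 tested genes had a positive and 4 a negative log2 fold change. Sema4a, which acts on T cells and in the retina, had 1.52, 20.3, 59.0, 64.4 and 0 CPM in aneurysms 4 to 8 and 0.695, 4.23, 32.9, 0 and 0 CPM in control samples 4 to 8. Aneurysms 6 and 7 were above every control sample. Its log2 fold change was 1.94 (standard error 1.76, adjusted p = 0.999, edgeR) for gene reads and 4.07 (standard error 1.74, unadjusted p = 0.0252, adjusted p = 0.832) for intron reads. Its exon reads ran the other way, with 26 in the aneurysms, all in aneurysm 5, against 95 in the control samples, 94 of them in control sample 6. Sema5a, which carries thrombospondin repeats, was read in introns in every sample, but in exons mainly in aneurysm 6 and control sample 5. In exons it had 7, 0, 308, 0 and 0 reads in aneurysms 4 to 8, against 0, 105, 0, 0 and 0 in control samples 4 to 8, whereas its intron log2 fold change was -2.96 (standard error 1.53, adjusted p = 0.93, edgeR), with every aneurysm below every control sample in introns (exact permutation p = 0.00794, and 0.37 after adjustment over all genes tested).

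The plexins as a family overlapped between the groups, with 281 ± 197 CPM summed in the aneurysms and 241 ± 84.6 CPM in the control samples (SD, n = 5 each). Plxna2, which signals with neuropilins, had 107 ± 64.02 CPM in the aneurysms and 107 ± 50.4 CPM in the control samples, with a log2 fold change of 0.00 (standard error 0.73). Plxna4, its relative in sensory neurons, had 39.5 ± 30.2 CPM and 44.6 ± 23.6 CPM in the same order. Plxnd1, the endothelial receptor of semaphorin 3E, and Plxnb2, a receptor of class 4 semaphorins, had log2 fold changes of 1.06 and 1.39 with standard errors of 1.28 and 1.51. Plxnc1, the receptor of semaphorin 7A, was named after its values were seen, because its intron reads did not overlap. With Unc5c and Sema5a it made 3 guidance genes whose intron reads were lower in every aneurysm than in every control sample, against 0 higher, of 30 tested (background 1.74% lower and 0.403% higher). Its intron log2 fold change was -2.21 (standard error 1.35, adjusted p = 0.961, edgeR), but it had 309 exon reads in aneurysm 4 and 85 in aneurysm 5, and 40 in all control samples.

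Of the Eph receptors, the A class was lower on average and Ephb4 was higher on average in the aneurysms, with no call. Epha6, a receptor of the adult brain that spans 584 kb of chromosome 11 (42259760 to 42843865), had 5.98, 0.923, 1.26, 1.41 and 26.1 CPM in aneurysms 4 to 8 and 2.26, 50.8, 46.8, 3.53 and 168 CPM in control samples 4 to 8. Aneurysms 5 to 7 were below every control sample, and control samples 4 and 7 lay within the range of the aneurysms. This gave a log2 fold change of -2.96 (standard error 1.4, unadjusted p = 0.044, adjusted p = 0.857, edgeR), and without aneurysm 8 it was -4.44. Epha3 had 19.4 ± 21.1 CPM in the aneurysms and 54.9 ± 49.2 CPM in the control samples (SD, n = 5 each; log2 fold change -1.49, standard error 1.13). Summed over the 9 EphA genes, of which 3 were tested and 3 had a negative log2 fold change, the level was 16.9 to 62.2 CPM in the aneurysms and 64.1 to 332 CPM in the control samples.

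The arterial and venous pair of this family is ephrin-B2 (Efnb2), found on arterial endothelium, and its receptor Ephb4, found on veins. Efnb2 had 35.1, 21.0, 0.18, 0.202 and 109 CPM in aneurysms 4 to 8 and 63.4, 18.8, 24.3, 7.94 and 57.9 CPM in control samples 4 to 8, with a log2 fold change of -0.06 (standard error 1.29). Ephb4 (chromosome 12, 22393329 to 22417980) had 0, 5.997, 14.4, 2.62 and 157 CPM in aneurysms 4 to 8 and 0, 0, 0, 0.176 and 12.02 CPM in control samples 4 to 8. Its highest level was in aneurysm 8, the library with the low scaling factor. For Ephb4 it was 3.91 (standard error 2.03, unadjusted p = 0.0648, adjusted p = 0.889, edgeR), and without aneurysm 8 it was 1.29, whereas without control sample 8 it was 8.95. For intron reads Ephb4 was called only where the filter on low counts was left out (1 guidance gene, background 0.237% higher and 0.0488% lower). Its intron reads numbered 0, 0, 0, 13 and 198 in aneurysms 4 to 8, against 0 in every control sample, so that 198 of 211 came from aneurysm 8.

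Efnb3, an ephrin of the midline of the spinal cord in mice, was read almost wholly in exons. It had 7.27, 5.54, 0, 0.202 and 0 CPM in aneurysms 4 to 8 and 29.0, 16.5, 13.0, 0.176 and 65.4 CPM in control samples 4 to 8, so that 4 of 5 control samples were above every aneurysm. For gene reads Efnb3 gave -3.21 on the log2 scale (standard error 1.82, unadjusted p = 0.0888, adjusted p = 0.935, edgeR), and for exon reads -3.32 (standard error 2.12). Efna2 had 0, 0, 1, 0 and 0 reads in aneurysms 4 to 8 and 3, 1, 23, 128 and 3 in control samples 4 to 8, all in introns. Its groups did not overlap in gene reads, but 1 read in aneurysm 6 (0.18 CPM) stood against 1 in control sample 5 (0.212 CPM). Scaled as intron reads, these 2 samples were at 0.619 and 0.461 CPM, and the groups overlapped. Efna2 was below the filter, and most of its reads came from control sample 7. The background, 1.54% lower and 0.499% higher, is over the 7615 genes tested, which do not hold Efna2, and so is no measure for it. Efna1 had 1 read in each group, Efnb1 had 57 and 62, all in exons, and Efna5 had 18 and 94.

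Ephb1, a receptor of B ephrins, had the largest difference between exon and intron reads among the 8 guidance genes in which both could be fitted. Its gene reads gave 32.4 ± 36.5 CPM in the aneurysms and 36.6 ± 18.4 CPM in the control samples (SD, n = 5 each; log2 fold change -0.17, standard error 1.18). In exons it had 0, 20, 0, 0 and 0 reads in aneurysms 4 to 8 and 100, 36, 94, 0 and 9 in control samples 4 to 8, with a log2 fold change of -5.46 (standard error 2.48, unadjusted p = 0.0273, adjusted p = 0.914, edgeR). In introns the log2 fold change was 0.72 (standard error 1.18). The exon to intron ratio differed by -7.23 on the log2 scale (standard error 4.03, unadjusted p = 0.0732, adjusted p = 0.992) in a fit of read type by group. Of the 8 guidance genes in that fit 0 passed, as did 0% of 1553 genes, and 0 of the 8 had an unadjusted p under 0.05, against 1.29% higher and 2.06% lower of all genes. Ephb2 had 29.3 ± 24.8 CPM in the aneurysms and 18.6 ± 13.7 CPM in the control samples, with 255 exon reads in aneurysm 5 and 0 in the other 4 aneurysms.

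**Figure D4:**
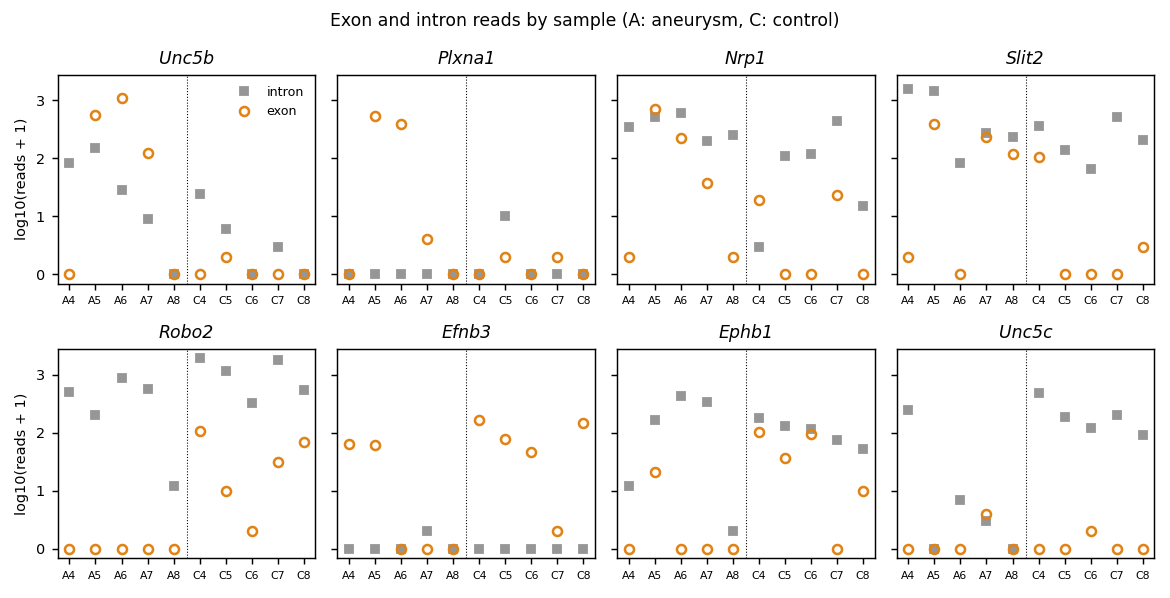
Exon reads (open circles) and intron reads (grey squares), as log10(reads + 1), of 8 guidance genes in aneurysms 4 to 8 (left of the dotted line) and control samples 4 to 8. Unc5b and Plxna1 had exon reads mainly in aneurysms 5 and 6, and Robo2 had none in any aneurysm and 1 to 104 in the control samples.

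The 34 guidance genes below the filter included some of the most one-sided read counts, named here after their values were seen. Plxna1 had 0, 534, 396, 3 and 0 exon reads in aneurysms 4 to 8 and 0, 1, 0, 1 and 0 in control samples 4 to 8, a ratio of 217 after scaling (95% counting interval 59.9 to 1794), and 100 of its reads in aneurysm 5 crossed a junction. Sema6d had 442 of its 443 exon reads of the aneurysms in aneurysm 5, against 2 exon reads in the control samples, and Plxnb3 had 132 of 133 in the same sample, against 0 in the control samples. The opposite was seen for Epha7, with 0 exon reads in the aneurysms and 159 and 10 in control samples 4 and 7, and for Epha5, with 20 gene reads in the aneurysms and 407 in the control samples. These counts came from 1 or 2 libraries each, apart from Epha5, which had 56 to 134 reads in 4 control samples and 1 in control sample 6, against 2 to 6 in every aneurysm. Of the 34, 15 had at least 100 gene reads in all, 9 had under 10 and 2 had none, and of the 32 with reads the mean CPM was higher in the aneurysms for 14 and in the control samples for 18. The tested genes not described above, Epha4, Sema4b, Sema4c, Sema6a and Sema7a, had log2 fold changes of -0.60, -0.84, -1.27, 1.77 and -1.09, each with an adjusted p of 0.999 (edgeR). The untested genes not named above had at most 553 gene reads over the 10 samples.

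The partners of these receptors were read in the same way. Of 65 listed genes for co-receptors, adhesion partners, collapsin response mediators, intracellular signalling and actin regulation, 64 were in the table and 47 were tested. None passed the threshold in edgeR (background 0.118% higher and 0.0394% lower), 2 higher and 2 lower had an unadjusted p under 0.05 (background 3.3% and 2.43%), and 27 had a positive and 20 a negative log2 fold change (54.2% and 45.8% of all genes tested), with a median of 0.31 against 0.13 over all genes tested. Dcc, the receptor that makes netrin attractive, had 45, 6, 10, 3 and 4 reads in aneurysms 4 to 8 and 44, 181, 149, 95 and 168 in control samples 4 to 8, nearly all in introns. Every aneurysm lay below every control sample in CPM (background 1.54% lower and 0.499% higher of all genes tested). The log2 fold change was -3.98 (standard error 1.54, unadjusted p = 0.0157, adjusted p = 0.603, edgeR). Dcc was named for its low p in these same data. DESeq2 called Dcc with an adjusted p of 0.0237 (background 1.09% higher and 0.643% lower), where the other 18 alternatives did not, and over its alternatives the adjusted p reached 1.0.

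The partners that were higher differed more between aneurysms. Crmp1, a cytosolic mediator of semaphorin 3A, had 83, 1, 13, 47 and 183 reads in aneurysms 4 to 8 and 2, 12, 1, 5 and 2 in control samples 4 to 8 (log2 fold change 5.03, standard error 1.87, unadjusted p = 0.012, adjusted p = 0.553, edgeR; 2.45 without aneurysm 8). All its reads in the aneurysms were in introns, and its only exon reads were 8 in control sample 5. Cfl1, cofilin, which severs actin filaments, had 608, 4004, 3503, 626 and 0 reads in aneurysms 4 to 8 and 411, 178, 146, 277 and 176 in control samples 4 to 8 (log2 fold change 2.11, standard error 0.96, adjusted p = 0.79). For Neo1, neogenin, the fit gave 1.59 on the log2 scale (standard error 0.88), and -0.13 without aneurysm 8. Limk2, a kinase that inactivates cofilin, had 3.10 ± 3.79 CPM in the aneurysms and 24.7 ± 25.9 CPM in the control samples (SD, n = 5 each; log2 fold change -2.96, standard error 1.71).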

How the data were processed

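Poly(A)-selected RNA of 5 aneurysms and 5 samples of the remaining circle of Willis was sequenced by the authors as paired reads of 75 bases from 500 ng RNA with a stranded kit, and mapped with CLC genomics workbench (version 11) to the rat genome Rnor6. The sources used here do not give the strand setting of the counting or the handling of duplicate reads, so that reads of overlapping antisense genes cannot be told apart. The deposited counts are total and unique gene, exon, intron and exon-exon junction reads per gene, not normalized. The columns of the authors' comparison and their normalized values were not used.

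Counts were fitted in R (4.3.3) with edgeR (4.0.16), by filterByExpr (count minimum 10), TMM and the quasi-likelihood test, and p-values were adjusted by Benjamini-Hochberg over all genes tested. The exon to intron ratio was an interaction of read type and group with the sample as a block. Exact permutation tests of ranks ran over 252 splits, with a smallest p of 0.00794. DESeq2 (1.42.0) and limma (3.58.1) were alternatives (DESeq2 left 1315 of the 7615 genes without an adjusted p), beside 2 scalings, 2 filters, removal of AABR07000398.1 and the mitochondrial genes, unique reads, a replicate block and leaving out each sample. Tables were read with Python (3.11.15), pandas (2.3.3), numpy (2.4.6) and scipy (1.17.1) and drawn with matplotlib (3.10.9). The edgeR steps were tested on simulated data. All pairs of replicates differed by more than counting noise, with a chi-square over its degrees of freedom of 55.8 at the least. The common biological coefficient of variation was 1.38 for gene, 1.69 for exon and 1.35 for intron reads.

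The 67 genes and the lists were chosen with earlier results of these data known. Genes were named where they passed a test, had the most reads of their family (2 each), had the lowest p (5 in each direction), or did not overlap between groups in gene or exon reads with at least 100 gene reads, and for partners where they had the lowest p (3 in each direction); 1 of these partners is not reported here. Gene positions are those of the deposited table. RefSeq promoter and miRNA sequences were at hand, but no measurement bears on them, and none is shown.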

Additional observations from a re-analysis of the deposited data

Results flagged for a closer look

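Among the 24 named guidance genes, each group of 5 samples was searched for a sample far from the other 4 on the log2(CPM + 2) scale (Dixon's ratio of the gap to the range, critical value 0.710). Such a sample was found in 6 of 48 groups, where chance alone gives about 2.4 in genes not chosen by their values. These genes were named in part from the same data, and some groups lie at or near 0. The 2 numbers are therefore no test. Unc5c had one in each group, aneurysm 4 at 28.8 CPM against 0 to 1.08 CPM in the other aneurysms (ratio 0.842) and control sample 4 at 82.9 CPM against 34.4 to 40.1 CPM (ratio 0.828). Ephb4 was at 12.02 CPM in control sample 8 against 0 to 0.176 CPM in the other control samples (ratio 0.957), which rests on 27 reads. With the other values at or near 0, its ratio is nearly fixed. Plxna2 was at 197 CPM in control sample 7 against 81.2 to 89.3 CPM (ratio 0.892). Robo2 was at 95.6 CPM in control sample 6 against 245 to 351 CPM (ratio 0.723). Efna2 had its only read of the aneurysms in aneurysm 6, and with 4 values at 0 its ratio is fixed at 1 whatever the level, so that it should not be counted against chance.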

How the results depend on the processing

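The number of guidance genes past the threshold was 0 for gene, exon and intron reads and for the exon to intron ratio, and it stayed at 0 to 0 with each sample left out. It was 1 for gene reads with no low-count filter and 1 with DESeq2 (Unc5b in both), and 1 for intron reads with no low-count filter (Ephb4). The count over all genes was 12 for gene reads (1 to 132 over the alternatives), 16 for exon reads (3 to 38) and 0 for intron reads (0 to 53). Deviations from the group mean correlated at 0.02, -0.02, 0.05, 0.00 and 0.14 between samples of the same number. Of 5 aneurysms, 2 correlated best with the control sample of their own number. With a common biological coefficient of variation of 1.38 for gene reads, such values cannot tell whether a shared number marks an animal. With the replicate block 0 guidance genes passed. Over all genes 17 passed with that block for gene reads, 5 for exon reads and 0 for intron reads. Single genes with small log2 fold changes turned round: Efnb2 with upper-quartile scaling (0.34) and DESeq2 (0.57), Plxna2 with upper-quartile scaling (-0.14), a count minimum of 30 (-0.011) and the replicate block (-0.16), Ntn1 with library size scaling (-0.22) and limma-voom (-1.36), Ephb1 (0.077) and Plxna4 (0.13) with DESeq2, Ephb2 (-0.068), Ntn4 (-0.58) and Neo1 (-0.20) with limma-voom, Ntn4 with the replicate block (-0.92), and Ephb1 in introns with limma-voom (-1.09) and the replicate block (-0.72). With 1 sample left out, gene reads gave -1.26 to 0.50 for Efnb2, -0.79 to 0.16 for Ephb1, -0.23 to 0.35 for Plxna2, -0.62 to 0.12 for Plxna4, -0.29 to 0.78 for Ntn1, -1.05 to 0.45 for Sema3a and -0.13 to 2.18 for Neo1. The cause of these changes was not tested. The median log2 fold change over all genes tested on gene reads was 0.13, and it was 0.40 with DESeq2, -0.32 with limma-voom and -0.35 with the replicate block.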
